A study of Homo sapiens with 6 samples.

Results

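Transcript levels of the NRF2 axis were examined in PATU8988 cells, a human pancreatic cancer cell line, with and without knockdown of CLIC1. The axis was taken as 10 genes picked by symbol from the 60831 genes of the deposited table. The 3 regulators were NFE2L2, which encodes the transcription factor NRF2, KEAP1 and SQSTM1, and the 7 targets were NQO1, HMOX1, GCLC, GCLM, TXNRD1, SRXN1 and SLC7A11. Each symbol matched 1 gene, and all 10 passed the level filter of a mean of at least 1 TPM (a transcript level scaled by gene length and by library total). The control group was 3 libraries of cells carrying a non-targeting hairpin (shNC), and the knockdown group was 3 libraries of cells carrying a hairpin against CLIC1 (shCLIC1). Both groups went through the same lentiviral delivery, with a vector that also carries EGFP and puromycin resistance under a ubiquitin promoter, and through puromycin selection, so both are selected stable lines. The labels give neither the number of hairpins against CLIC1 nor whether replicates came from separate infections. Each p-value below therefore reflects library-to-library spread only, which may be technical.

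NRF2 is made continuously and destroyed continuously. KEAP1 is the substrate adaptor that brings NRF2 to the CUL3 ubiquitin ligase, and oxidants or electrophiles that modify cysteines of KEAP1 let NRF2 accumulate, enter the nucleus, pair with a small MAF protein and switch on genes with an antioxidant response element. SQSTM1, also called p62, is an autophagy receptor that binds KEAP1 in competition with NRF2 and is itself an NRF2 target, and NRF2 activity is known to support redox balance in pancreatic cancer cells. Because NRF2 is controlled largely as a protein, transcript levels of NFE2L2 and KEAP1 do not measure its activity.

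CLIC1 stood at 68.8% of control in the knockdown libraries (log2 fold change −0.54, SE 0.0407, adjusted p = 0.00345), with no overlap between groups. The epithelial label was matched by the summed level of its markers. All 8 epithelial carcinoma markers reached 1 TPM, with a summed level of 9597 to 9861 TPM in control and 11356 to 11857 TPM in knockdown, and KRT8, KRT18, KRT19 and EPCAM among them rose. Their means over all libraries ran from 1.58 to 4669 TPM (KRT8). The lowest was under the highest marker of the fibroblast, leukocyte, endothelial and acinar lists (1.62, 5.5, 2.17 and 3.85 TPM). Of 8 fibroblast markers 2 reached 1 TPM, with sums of 2.75 to 4.48 TPM in control and 1.58 to 3.37 TPM in knockdown, and COL1A2, DCN, FAP and LUM among them were at 0. Leukocyte markers (1 of 8 at 1 TPM, CD14) summed to 4.12 to 6.36 TPM in control and 6.94 to 7.63 TPM in knockdown, with PTPRC and CD3E among those at 0, and acinar markers (1 of 8, PRSS1) to 2.95 to 3.57 and 4.14 to 5.56 TPM. Endothelial sums were at most 3.82 TPM and endocrine sums at most 0.4 TPM. The part of the epithelial, leukocyte and acinar differences in the results below was not tested. Sequencing depth is unknown, because TPM keeps none.

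SQSTM1 was the 1 member that passed the test, and it fell. Its level was 364.2, 373.1 and 363.4 TPM in the control libraries and 303.4, 297.0 and 283.4 TPM in the knockdown libraries. Every knockdown library lay below every control library. The means were 366.9 ± 5.38 TPM (SD, n = 3) and 294.6 ± 10.2 TPM, so knockdown stood at 80.3% of control. The log2 fold change was −0.32 (SE 0.0364, 95% interval −0.40 to −0.23, adjusted p = 0.0136), the rank of its p being 45 among the 14135 tested genes. In bulk RNA, fewer cells that express a gene and less RNA per cell cannot be told apart. An exact two-sided permutation test of the gene alone gave p = 0.1, which is the minimum for groups of 3 and 3. SQSTM1 no longer passed when any of control replicates 1, 2 and 3 or knockdown replicate 2 was left out (adjusted p 0.0907, 0.0939, 0.0687 and 0.0680), and in limma without the mean-variance trend (adjusted p = 0.0995), while the log2 fold change stayed between −0.37 and −0.29 in all 17 alternative settings.

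One call among 10 members compares with 1.74% of all tested genes called in either direction and 0.778% called lower. The groups did not overlap for 5 of the 10 members, 4 lower and 1 higher, against 22.3% of all tested genes. The members were chosen with earlier results of these data known, so these shares are descriptions.

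**Figure D1:**
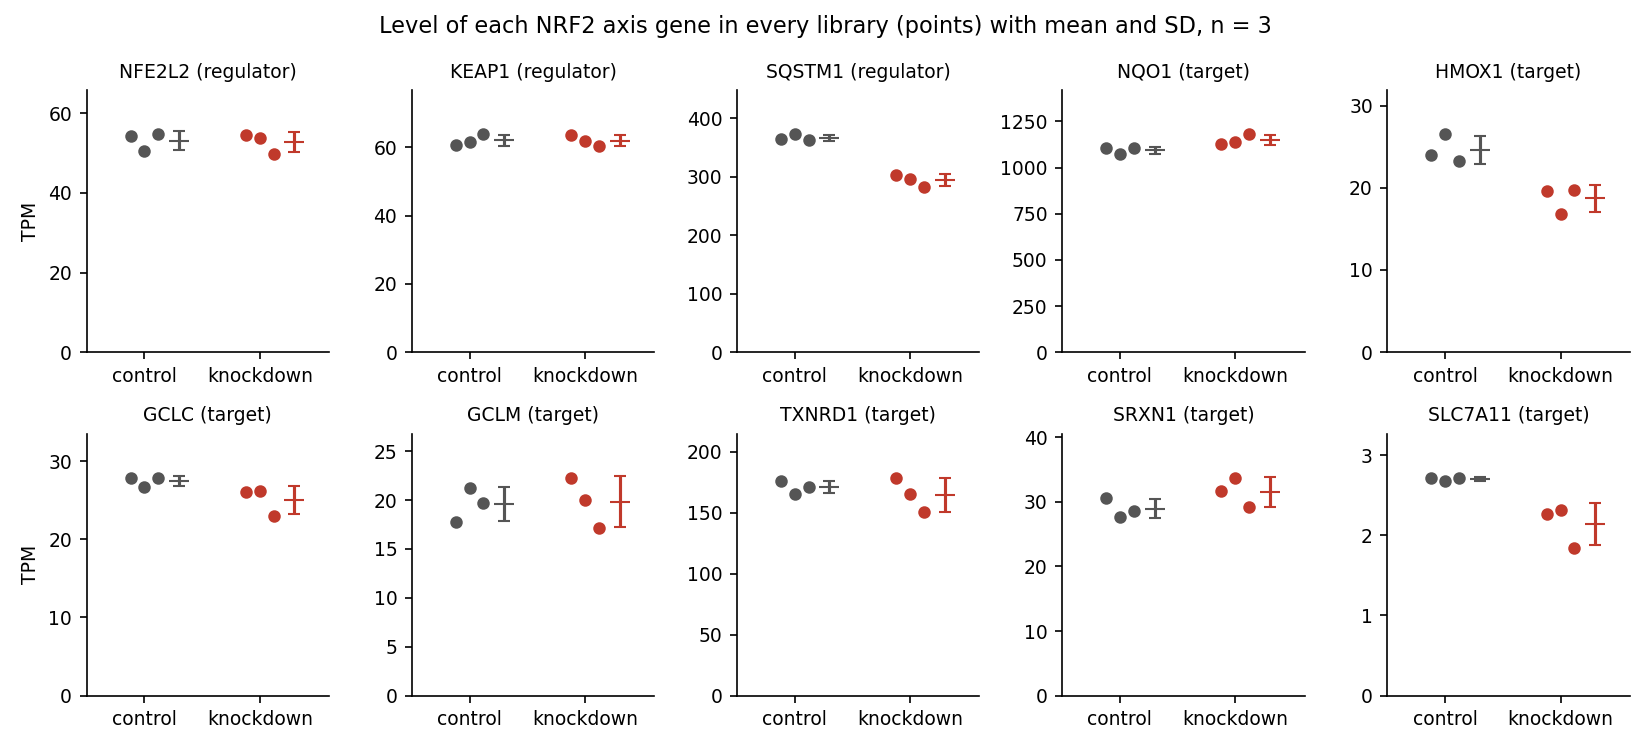
Level in TPM (y axis, from 0, own scale in each panel) of the 10 NRF2 axis genes in each control (grey) and knockdown (red) library, with the mean and SD of 3 libraries beside the points. SQSTM1, HMOX1, GCLC and SLC7A11 have all knockdown points below all control points, NQO1 has them above, and the other 5 genes overlap.

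The SQSTM1 transcript also carries a 7-base sequence that has a separate history in these data. An earlier search of these data, made after the results were seen, had found GTGCTGA often in the 3′ UTRs of genes that were lower in knockdown. Searched again in the longest annotated 3′ UTR of each tested gene (GENCODE 29), on the transcript strand, it was present in 48 of 97 lower genes, 49.5%, in 5 of 129 higher genes, 3.88%, and in 15.8% of all 11744 genes searched. Among the 10 NRF2 axis genes it was present in SQSTM1 once and in SLC7A11 at 2 places, and it was not found in the other 8. These 2 of 10 members are to be read beside the 15.8% of all genes searched. SLC7A11 has the longest searched 3′ UTR of the members, 7859 bases, and the next longest, that of GCLM, has 3785. The sites of SQSTM1 and SLC7A11 are shown as a description, with the 7 bases in capitals.
SQSTM1, base 186 of a 1485-base 3′ UTR: gtgtgtgtgtGTGCTGAtgtttcctgg
SLC7A11, base 4193 of a 7859-base 3′ UTR: ttgtacattaGTGCTGAtcaagtttac
SLC7A11, base 5504 of the same 3′ UTR: tcagaaggccGTGCTGAaagccagagg
The 7 bases were chosen on these samples, and SQSTM1 is 1 of the 48 lower genes that hold them, so the match is not independent evidence. The part of the sequence in the lower SQSTM1 level was not tested.

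SQSTM1 (ENSG00000161011) lies on the plus strand of chromosome 5, from 179806398 to 179838078 in GRCh38, and the annotation places MGAT4B and MRNIP over part of it on the opposite strand. The strand setting of the counting is unknown here, so reads of the overlaps may be mixed. MGAT4B, a glycosyltransferase, was at 144.0 ± 2.63 in control libraries and 134.4 ± 1.36 TPM in knockdown libraries (log2 fold change −0.10, adjusted p = 0.247). MRNIP, a DNA repair factor, was at 25.3 ± 1.04 and 26.6 ± 0.719 TPM (0.07 on the log2 scale, adjusted p = 0.608). Neither passed the test, and neither differed by as much as SQSTM1. MGAT4B was lower in every knockdown library than in every control library, as SQSTM1 was, and the groups of MRNIP overlapped. The part of mixed reads in the SQSTM1 values was not tested.

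The transcripts of NRF2 itself and of its repressor were at nearly equal levels in both groups. NFE2L2 (ENSG00000116044, chromosome 2, minus strand, 177227595 to 177392697) had levels of 54.3, 50.4 and 54.8 TPM in control libraries against 54.6, 53.7 and 49.9 TPM in knockdown. The groups overlapped, and the knockdown mean was 99.2% of control. The 95% interval of the difference ran from 90.1% to 109.1% of control (adjusted p = 0.952), so a change beyond that range is outside the interval, while a smaller one was not detectable. KEAP1 (ENSG00000079999, chromosome 19, minus strand, 10486120 to 10503741) had 60.7, 61.6 and 63.9 TPM in control libraries against 63.5, 62 and 60.5 TPM in knockdown. It stood at 99.9% of control, with an interval from 92.6% to 107.7% (adjusted p = 0.992). Set side by side per library, the NFE2L2 level was 0.857 ± 0.0378 times the KEAP1 level in control and 0.851 ± 0.0229 times in knockdown, with overlapping groups. The SQSTM1 level was 5.91 ± 0.197 times the KEAP1 level in control and 4.75 ± 0.0599 times in knockdown, with no overlap.

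None of the 7 targets passed the test, by limma with Benjamini-Hochberg adjustment over all tested genes, and 2 of them, HMOX1 and NQO1, had an unadjusted p under 0.05. Their values pointed both ways, with 4 lower and 3 higher, log2 fold changes from −0.38 to 0.12 and a median of −0.06. The 3 regulators had a median of −0.01, and all tested genes a median of −0.00473. The plot of log2 fold changes shows both groups of members beside CLIC1.

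**Figure D2:**
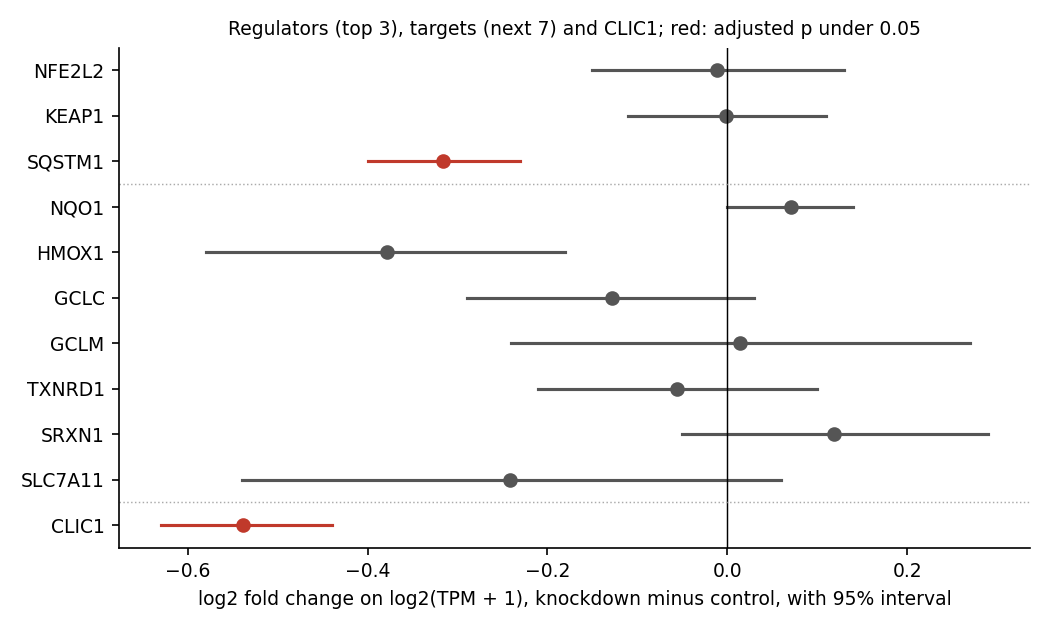
Log2 fold change on the log2(TPM + 1) scale (x axis, knockdown minus control) with its 95% interval for the 3 regulators, the 7 targets and CLIC1. SQSTM1 at −0.32 and CLIC1 at −0.54 passed the test (red), HMOX1 at −0.38 has the lowest value of the targets with a wider interval, and NFE2L2 and KEAP1 lie on 0.

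HMOX1 had the lowest value among the members without passing. It encodes heme oxygenase, which opens the heme ring and releases iron, and its gene is repressed by BACH1 as well as induced by NRF2. Its level was 24.0, 26.5 and 23.3 TPM in control and 19.6, 16.8 and 19.7 TPM in knockdown. All knockdown libraries lay below all control libraries, at 76.0% of the control mean. The log2 fold change was −0.38 (SE 0.0862, 95% interval −0.58 to −0.18), with an unadjusted p of 0.00291 and an adjusted p of 0.0864. It passed in 1 of 17 other settings, with trends on GC content, length and level removed (−0.45, adjusted p = 0.0331). HMOX1 lies on chromosome 22, 35380361 to 35394214, with no other annotated gene over it, and its searched 3′ UTR does not hold GTGCTGA.

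NQO1, a quinone reductase that is the usual readout of NRF2 activity, was the most abundant member and was slightly higher in knockdown without passing. It was at 1104, 1072 and 1106 TPM in control and 1126, 1141 and 1181 TPM in knockdown. The groups did not overlap, but the gap between the highest control and the lowest knockdown library was small beside the levels. Knockdown stood at 105.1% of control (log2 fold change 0.07, SE 0.0288, unadjusted p = 0.0420, adjusted p = 0.295). After quantile normalization it passed as higher (0.13, adjusted p = 0.0404). NQO1 and HMOX1 therefore pointed in opposite directions, and the NQO1 level was 44.7 ± 3.75 times the HMOX1 level in control and 61.8 ± 5.43 times in knockdown.

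None of the 3 members of the cystine and glutathione arm passed, with SLC7A11 and GCLC on the low side and GCLM near 0. SLC7A11, the cystine-importing subunit of the xCT transporter, was the least abundant member, at 2.72, 2.68 and 2.72 TPM in control and 2.27, 2.32 and 1.84 TPM in knockdown. The knockdown libraries all lay below control, at 79.2% of the control mean. On the log2(TPM + 1) scale, which understates changes of low genes, the difference was −0.24 (SE 0.129, adjusted p = 0.426), and with a pseudocount of 0.1 it was −0.33. Knockdown replicate 3 was the lowest library, and without it the difference on the log2(TPM + 1) scale was −0.17. SLC7A11 works as a pair with the heavy chain SLC3A2, which was at 270.4, 278.2 and 294.6 TPM in control and 393.2, 377.1 and 391.1 TPM in knockdown and rose (log2 fold change 0.46, SE 0.0413, adjusted p = 0.00719), a call lost without control replicate 2 (adjusted p = 0.0598). The SLC3A2 level was 103.8 ± 4.45 times the SLC7A11 level in control and 182.8 ± 26.3 times in knockdown, without overlap. This ratio of transcripts does not measure the assembled transporter, and whether the SLC3A2 rise bears on it was not tested.

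Glutamate-cysteine ligase makes the first product of glutathione synthesis from a catalytic subunit, GCLC, and a modifier subunit, GCLM. GCLC was at 27.8, 26.7 and 27.9 TPM in control and 26.0, 26.2 and 23.0 TPM in knockdown, 91.3% of control, with no overlap (log2 fold change −0.13, SE 0.0691, adjusted p = 0.430, and −0.07 without knockdown replicate 3). GCLM was at 17.8, 21.2 and 19.7 TPM and at 22.3, 20.1 and 17.1 TPM, with overlapping groups (0.01, SE 0.110, adjusted p = 0.973). The GCLC level was 1.41 ± 0.155 times the GCLM level in control and 1.27 ± 0.0921 times in knockdown, again with overlap. The 95% intervals ran from 81.8% to 102.4% of control for GCLC and from 84.5% to 120.7% for GCLM.

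The thioredoxin arm did not pass either. TXNRD1, the cytosolic thioredoxin reductase, was at 176.1, 165.7 and 171.5 TPM in control and 178.9, 165.1 and 150.9 TPM in knockdown. Knockdown replicate 3 was the lowest of the 6 and knockdown replicate 1 the highest, and the log2 fold change was −0.06 (SE 0.0643, adjusted p = 0.729) and 0.01 without knockdown replicate 3. SRXN1, the sulfiredoxin that repairs over-oxidized peroxiredoxins, was at 30.6, 27.6 and 28.6 TPM in control and 31.7, 33.7 and 29.2 TPM in knockdown. Its groups overlapped, and the log2 fold change was 0.12 (SE 0.0729, adjusted p = 0.493) and 0.07 without knockdown replicate 2.

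The members covered a wide span of levels. NQO1 was on average 462.4 times as abundant as SLC7A11 per length. In control the order was NQO1, SQSTM1, TXNRD1, KEAP1, NFE2L2, SRXN1, GCLC, HMOX1, GCLM and SLC7A11. Neighbours in that order did not overlap between libraries, except SRXN1 and GCLC. In knockdown GCLM and HMOX1 exchanged places, with overlapping libraries, and the other places were as in control. NQO1 stood at the 99th percentile of tested genes and SLC7A11 at the 14.4th.

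Promoter letters were compared with the antioxidant response element, searched as TGACNNNGC on both strands in windows of 300 bases (250 before to 50 after a gene start; RefSeq, GRCh38.p14). The table held 13 windows for 8 of the members. Of those windows 4 held a match, in KEAP1, GCLM and TXNRD1, while 13.3% of all 35116 windows in the table did. Windows of NFE2L2, SQSTM1, NQO1, GCLC and SRXN1 held none, which says only that these letters are not in those windows. The sequences are shown because KEAP1 and GCLM share the same 9 letters, read here on the gene strand, where the element is on the opposite strand. The 9 matched bases are in capitals.
KEAP1, minus strand, chr19:10502774-10502822: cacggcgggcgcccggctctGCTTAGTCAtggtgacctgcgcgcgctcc
GCLM, minus strand, chr1:93909436-93909484: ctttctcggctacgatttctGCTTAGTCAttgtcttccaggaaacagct
TXNRD1, plus strand, chr12:104286910-104286958: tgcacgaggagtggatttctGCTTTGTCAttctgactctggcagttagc
A second TXNRD1 window with matches and a second match of KEAP1 are not printed. None of these 3 genes passed the test. A match is a description of letters and not a binding site.

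Around the members, 8 lists of related genes held 162 genes of the table, of which 146 were tested. Of these, 4 rose, 5 fell and 137 did not pass, and their median log2 fold change was −0.00. An unadjusted p under 0.05 was found for 40 of the 146, and a log2 fold change below 0 for 77. The groups did not overlap for 49, 26 lower and 23 higher, against 22.3% of all tested genes. Genes called in either direction made up 1.74% of all tested genes. Over all tested genes 0.962% were called higher and 0.778% lower, 15.6% had an unadjusted p under 0.05 and 51.3% had a log2 fold change below 0, and the counts of each list are to be read beside these shares. The lists were written with earlier results of these data known. The plot of the lists shows the called genes by name.

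**Figure D3:**
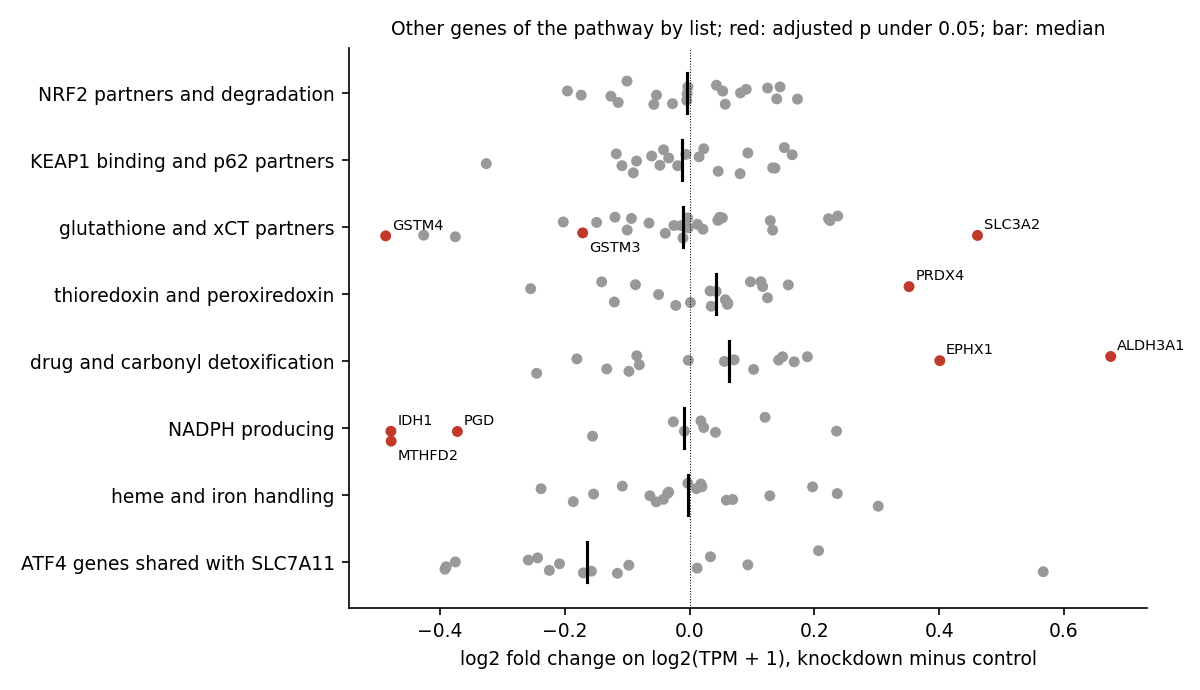
Log2 fold change on the log2(TPM + 1) scale (x axis, knockdown minus control) of each tested gene of 8 related lists (rows); genes with an adjusted p under 0.05 are red and named, and the bar is the list's median. The called genes lie in the glutathione, thioredoxin, detoxification and NADPH rows, on both sides of 0, and the row of ATF4 genes has the lowest median, −0.16.

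Partners that control NRF2 had 0 of 20 genes past the threshold, with 0 at an unadjusted p under 0.05. CUL3, the ligase scaffold, was at 59.6 ± 1.09 and 59.4 ± 2.61 TPM (adjusted p = 0.982). MAFG, a small MAF partner, was at 16.9 ± 0.635 and 18.6 ± 2.06 TPM (adjusted p = 0.566), and MAFF at 6.27 ± 0.240 and 7.19 ± 0.335 TPM (adjusted p = 0.388). BACH1, the repressor of HMOX1, was at 6.60 ± 0.335 and 5.70 ± 1.18 TPM (−0.20 on the log2 scale, adjusted p = 0.573), where knockdown replicate 3 was the lowest library and the value without it was −0.04. Among proteins that bind KEAP1 or work with SQSTM1, 0 of 20 passed and 1 had an unadjusted p under 0.05. That gene, GABARAPL1, an autophagosome protein of the ATG8 family, was at 67.6, 67.4 and 67.5 TPM in control and 55.2, 58.4 and 48.0 TPM in knockdown (log2 fold change −0.33, SE 0.0739, adjusted p = 0.0863). Without knockdown replicate 3 its log2 fold change was −0.25. DPP3, a peptidase that binds KEAP1, was at 72.6 ± 2.08 and 79.8 ± 5.13 TPM (adjusted p = 0.334).

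Detoxifying enzymes had 2 of 16 tested genes higher and 0 lower. ALDH3A1, an aldehyde dehydrogenase, was at 73.3, 70.8 and 74.6 TPM in control and 122.2, 113.1 and 115.6 TPM in knockdown. The groups were far apart beside their spread, and the gene rose by 0.67 on the log2 scale (SE 0.0473, adjusted p = 0.00337). EPHX1, the microsomal epoxide hydrolase, rose between means of 141.3 ± 3.20 and 186.8 ± 2.53 TPM (0.40, SE 0.0364, adjusted p = 0.00719), a call lost without control replicate 3 (adjusted p = 0.0538). Of the 6 aldo-keto reductases in the list, a family with well known NRF2 targets, AKR1B1, AKR1B10, AKR1C1 and AKR1C2 were under the level filter in these cells. Their means lay between 0.207 and 0.907 TPM. AKR1C3 had means of 5.37 TPM in control and 5 TPM in knockdown (−0.10, adjusted p = 0.851), and AKR1A1 of 112.3 and 99 TPM (−0.18, adjusted p = 0.135). Neither passed, and reads of the near-identical AKR1C genes may be split between copies.

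Glutathione genes had 1 of 27 tested genes higher, SLC3A2, and 2 lower. GSTM4, a glutathione transferase, was at 352.8, 371.5 and 341.1 TPM in control and 256.5, 240.4 and 262.5 TPM in knockdown (log2 fold change −0.49, SE 0.0480, adjusted p = 0.0102), a call lost without control replicate 1 or 2 (adjusted p 0.0718 and 0.0603). GSTM3 fell from 1262 ± 42.3 to 1120 ± 8.47 TPM (−0.17, adjusted p = 0.0428). That call was lost when any 1 library was left out (adjusted p from 0.0770 to 0.15). It held in 4 of the 17 alternative settings, and was also lost after trimmed-mean rescaling and after quantile normalization (adjusted p 0.15 and 0.0905). GSTM genes are related neighbours, so their values are uncertain where reads were split between them. The searched 3′ UTR of GSTM4 holds GTGCTGA while that of GSTM3 does not. GSR, which regenerates reduced glutathione, was at 60.7 ± 2.63 and 60.5 ± 1.64 TPM (adjusted p = 0.987).

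Thioredoxin and peroxiredoxin genes had 1 of 19 higher. PRDX4, the peroxiredoxin of the endoplasmic reticulum, rose between means of 140.7 ± 6.66 and 179.8 ± 9.20 TPM (by 0.35 on the log2 scale, SE 0.0537, adjusted p = 0.0287), a call lost when any 1 library was left out (adjusted p from 0.0555 to 0.137). TXN, the substrate of TXNRD1, was at 737.7 ± 17.6 and 804.4 ± 16.9 TPM, higher in every knockdown library without passing (0.12, adjusted p = 0.107).

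The list written around NADPH supply, in which not every enzyme makes NADPH itself, had 3 of 11 lower and 0 higher. Over all tested genes 0.778% were called lower. The groups did not overlap for 5 of the 11, 3 lower and 2 higher, against 22.3% of all tested genes. ME1 was 1 of the 2 higher, at means of 43.3 TPM in control and 51.1 TPM in knockdown (0.24 on the log2 scale, adjusted p = 0.0709). Whether NADPH supply changed was not tested. The list as a whole had a median log2 fold change of −0.01, with 6 values negative and 5 positive. IDH1, the cytosolic isocitrate dehydrogenase, was at 105.4, 105.8 and 101.3 TPM in control and 75.1, 77.0 and 71.4 TPM in knockdown. No libraries overlapped, and the log2 fold change was −0.48 (SE 0.0468, adjusted p = 0.0102). PGD of the pentose phosphate pathway stood at 77.2% of control and MTHFD2 of the mitochondrial folate pathway at 71.5% (adjusted p 0.0139 and 0.0114). Leaving out 1 library ended the IDH1 call without control replicate 1, 2 or 3 (adjusted p 0.0652, 0.0675 and 0.0538), the MTHFD2 call without control replicate 2 or 3 or knockdown replicate 2 (0.0643, 0.0650 and 0.0626) and the PGD call without control replicate 1, 2 or 3 or knockdown replicate 2 (0.0907, 0.0974, 0.0747 and 0.0626). The searched 3′ UTRs of IDH1, PGD and MTHFD2 do not hold GTGCTGA.

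Heme and iron genes had 0 of 19 past the threshold, and 5 with an unadjusted p under 0.05, against 15.6% of all tested genes. FECH, which inserts iron to form heme, was at 70.4 ± 5.57 and 86.9 ± 4.36 TPM (0.30 on the log2 scale, adjusted p = 0.0891). BLVRB, a biliverdin reductase, was at 103.5 ± 1.59 and 122.4 ± 9.88 TPM (0.24, adjusted p = 0.125). The ferritin light chain FTL was at 2490 ± 81.2 and 2520 ± 31.5 TPM (0.02, adjusted p = 0.814). The control and knockdown libraries of FECH and BLVRB did not overlap, and both were higher in knockdown while HMOX1 was lower. BLVRA, the other biliverdin reductase of the list, was lower without overlap. Its means were 51.8 TPM in control and 47.9 TPM in knockdown (−0.11, adjusted p = 0.366).

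The list of genes that share the ATF4 stress pathway with SLC7A11 had 0 of 16 past the threshold. Of these 16, 11 had an unadjusted p under 0.05, against 15.6% of all tested genes. The list is a selection, and the called genes SLC3A2 (0.46) and MTHFD2 (−0.48) were counted in other lists. ATF4 itself was at means of 440.6 TPM in control and 395.1 TPM in knockdown, lower without overlap (−0.16, adjusted p = 0.0667). The median log2 fold change of the 16 was −0.16, and 11 of 16 values were negative, against 51.3% of all tested genes. PSAT1, a serine synthesis enzyme, was at 97.2 ± 2.81 and 82.0 ± 3.35 TPM (−0.24, adjusted p = 0.0628). CEBPB, a transcription factor, was at 6.45 ± 0.0651 and 10.1 ± 1.54 TPM (0.57, adjusted p = 0.0604).

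**Figure D4:**
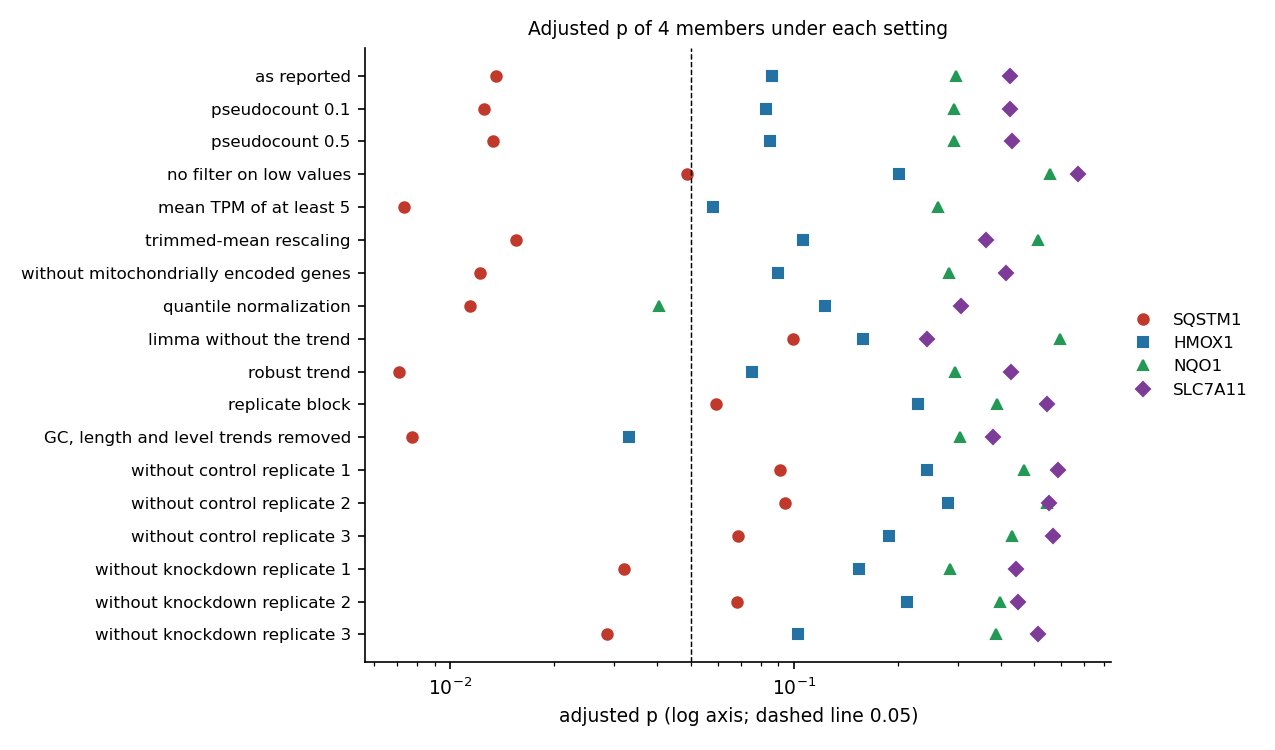
Adjusted p (x axis, log scale, dashed line at 0.05) of SQSTM1, HMOX1, NQO1 and SLC7A11 as reported and under 17 other settings (rows); SLC7A11 is under the filter at a mean of 5 TPM. SQSTM1 passes in 11 of the 17 settings, HMOX1 and NQO1 in 1 each and SLC7A11 in none of its 16.

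The genes whose levels followed NFE2L2 most closely over the 6 libraries were HOOK2, TDRD7 and ZNF212, by Pearson's r of log2(TPM + 1) of 0.9954, 0.9920 and 0.9917. This is a description over 6 points that share library composition, and 277 of 13895 genes compared had an r above 0.9.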

How the data were processed

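Bulk RNA sequencing of 3 control and 3 knockdown libraries was analysed from the TPM table the authors deposited. The submitters' processing notes name GRCh38 and 4 tools, in no stated order: RSEM, HISAT, fastp and edgeR. Tool versions, annotation and strand setting were not found in the labels. Other columns of the table hold the authors' group means (within 3.33e-05 TPM of the means of the columns) and gene lengths. Each library sums to about the same total, so depth and counting error are unknown. Columns were matched to samples by the group abbreviation and number in their names.

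Values were transformed to log2(TPM + 1), genes with a mean of at least 1 TPM were kept, and 14135 genes were tested with limma 3.58.1 (R 4.3.3), with a mean-variance trend, no covariate, two-sided, with Benjamini-Hochberg adjustment over all tested genes and a threshold of 0.05. All adjusted p-values come from this fit unless another setting is named. Errors beside TPM are SDs over 3 libraries, and SE is that of the log2 fold change. The fit was tested on simulated data first. Coordinates and 3′ UTRs came from GENCODE 29 on GRCh38, which held 98.2% of the tested identifiers.

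Text names all 10 members, CLIC1, direct partners of members and the 3 genes most like NFE2L2. From each list it names up to 3 called rises, up to 3 called falls and the 2 genes with the smallest p. Genes overlapping SQSTM1, AGPS, the aldo-keto reductases, BLVRA, ME1 and ATF4 were added after their values were seen. A few items that this rule covers are not reported here. Members, lists and the 7-base search were chosen with earlier results of these data known. GGT1 and SOD2 were left out because their names did not match exactly 1 gene. Alternatives covered the pseudocount, level filter, scaling, variance model, replicate number and each library left out.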

Additional observations from a re-analysis of the deposited data

How the results depend on the processing

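Over 17 alternative settings, SQSTM1, HMOX1, NQO1, GCLC, SRXN1 and SLC7A11 kept the sign of their log2 fold change (SLC7A11 over 16). The 246 genes called became 61 with no filter on low values, 0 in limma without the trend (where 2040 had an unadjusted p under 0.05), 501 after removing trends on GC content, length and level, and 20 to 236 with 1 library left out. Members called, 1 as reported, became 2 after quantile normalization (SQSTM1 and NQO1) and with the trends removed (SQSTM1 and HMOX1), 0 without the limma trend, and 0 to 1 with 1 library left out. The 9 called pathway genes became 0 without the limma trend, 16 with the trends removed and 2 to 7 with 1 library left out. The regulator median minus the target median, 0.04 as reported, was 0.01 with a mean of at least 5 TPM (where SLC7A11 is not tested), −0.02 with the trends removed and 0.01 to 0.08 with 1 library left out. CLIC1 lost its call without the limma trend (−0.54, adjusted p = 0.0730). That setting also ended the calls of all 9 pathway genes. Causes were not tested.

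Values near 0 changed sign. With the trends removed NFE2L2 was at 0.02, CUL3 at 0.05, GSR at 0.02 and FTL at −0.03. KEAP1 was at 0.00 after trimmed-mean rescaling, without mitochondrially encoded genes and after quantile normalization, and GSR at 0.00 in the last 2. With 1 library left out the ranges were −0.05 to 0.03 for NFE2L2, −0.02 to 0.02 for KEAP1, −0.07 to 0.11 for GCLM, −0.12 to 0.01 for TXNRD1, −0.02 to 0.03 for CUL3, −0.04 to 0.03 for GSR and −0.01 to 0.04 for FTL.

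The labels number the replicates 1 to 3 in both groups and do not say whether same-numbered libraries were paired. Deviations of same-numbered libraries correlated at 0.0396, −0.0460 and −0.0132. Such values show no large shared deviation, but they cannot tell whether the libraries were prepared as pairs. With replicate number as a block, 41 genes, 0 members (SQSTM1 adjusted p = 0.0591) and 4 pathway genes were called.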
